A study of Mus musculus with 6 samples.

Results

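Hyaluronan synthesis, breakdown and binding was followed through 10 genes: the synthases Has1, Has2 and Has3, the hyaluronidases Hyal1 and Hyal2, the surface receptor Cd44, and the matrix proteins Vcan, Hapln1, Hapln3 and Tnfaip6. They were selected on measured values, the lower log2 signal of Has2 in the T3 arrays, so their differences between the groups are descriptions and were given no test of their own. Each gene was represented by a probe set that the array annotation gives 1 symbol, the brightest where a gene has several. This left 9 of the 10, out of 19938 genes tested, and each of the 9 had 1 such probe set. Hyal1 was not analysed here, because the probe sets that list it also list Naa80.

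The samples were enterospheres, free-floating balls of cells that had been grown with EGF and FGF from dissociated circular muscle of newborn C57BL/6 mouse gut. They are used as a source of neural progenitors of the enteric nervous system. All 6 samples were moved to a differentiation medium without these growth factors. The T3 group (n = 3) then received triiodothyronine, the receptor-binding thyroid hormone, for 1 day at 100 nM (the labels write nm), and the control group (n = 3) stayed untreated for the same time. Each sample was pooled from 3 mice and hybridised to 1 whole-transcript array, and the comparison asks what T3 does to gene expression in these differentiating spheres.

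Hyaluronan is a long, unsulfated sugar chain of the extracellular matrix. Synthases in the plasma membrane build it from UDP-glucuronic acid and UDP-N-acetylglucosamine and push it out of the cell, and hyaluronidases cut it outside the cell or after uptake. Outside the cell it is held by the receptor CD44 and by proteoglycans such as versican, whose grip is stabilised by link proteins. Hyaluronan and versican are known components of the matrix through which embryonic neural crest cells, the ancestors of the enteric nervous system, migrate.

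Signal of the synthase Has2 in T3 samples was 51.6% of that in controls, while most other genes of the set were not called. By limma's adjusted p under 0.05 over all genes, the rule used here for calling a gene, 2 of the 9 genes were called, Has2 and Has3, both lower. Of all 19938 genes 3.1% were called, 0.823% with the T3 samples lower and 2.28% with them higher. In 4 of the 9 genes the 3 T3 values and the 3 control values did not overlap: Has2, Has3 and Vcan were lower and Hapln3 was higher. Groups did not overlap in 19.5% of all genes, 7.55% with T3 lower and 11.9% with T3 higher. As the set was built on this comparison, these counts describe it and support nothing further. The median log2 change of the 9 genes was -0.07, beside 0.0088 for all genes. An array level depends on its probes, so T3 and control are compared here within a gene. Percentiles of genes and mean levels of marker lists describe signal on the array. They do not rank amounts of RNA or of cells between genes.

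**Figure D1:**
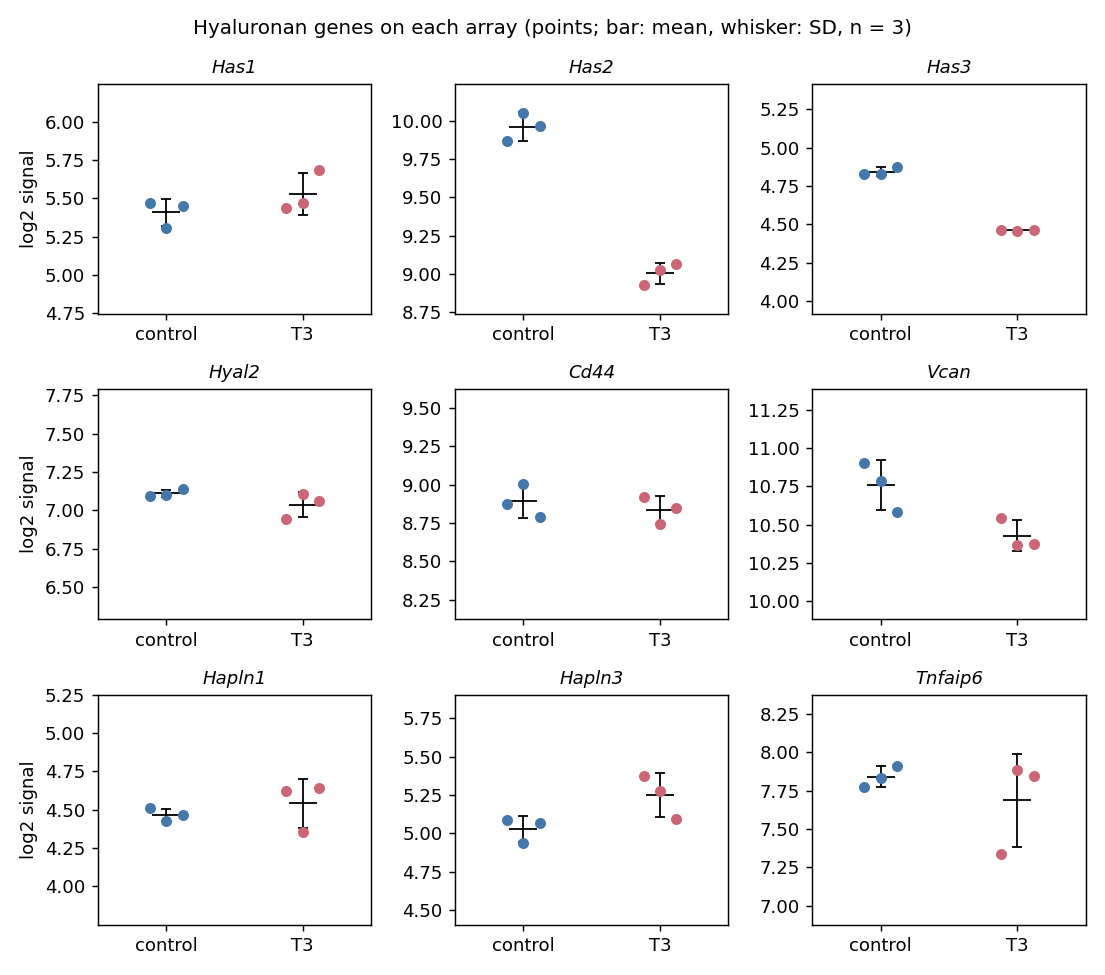
Log2 signal (vertical axis, the same height of 1.5 log2 units in every panel) of the 9 measured hyaluronan genes in control and T3 samples; points are arrays, the horizontal mark is the mean and the whisker the SD of 3 arrays. Has2 moves from between 9.87 and 10.05 in controls to between 8.93 and 9.06 with T3, whereas the Cd44 and Hyal2 groups overlap.

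Has2 encodes the synthase that makes most hyaluronan in the embryo. Its log2 signal (probe set 10428707) was 9.87, 10.05 and 9.96 in control replicates 1, 2 and 3. In T3 replicates 1, 2 and 3 it was 8.93, 9.02 and 9.06. All T3 arrays were therefore lower than all controls, and the gap between the nearest values of the groups, 0.80, was several times the spread within either group. The group means were 9.961 ± 0.09 (SD, n = 3) and 9.005 ± 0.07 (SD, n = 3), a log2 change of -0.96 ± 0.08 (SE). Signal with T3 was thus 51.6% of control, a 1.94-fold difference. Ordered by log2 change, Has2 stood at place 15 from the lowest of the 19938 genes. Its call was kept without any 1 array, with log2 changes from -1.003 to -0.911. As the set was chosen around this gene, that is a description and not a test. In whole spheres, fewer cells that express a gene and less RNA per cell cannot be told apart.

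Has3 encodes a second synthase. Its signal (probe set 10575095) was 4.83, 4.83 and 4.88 in control replicates 1 to 3 and 4.46 in each of the T3 replicates. The groups were 0.36 apart at their nearest values, and the 3 T3 arrays were almost identical (SD 0.0015). As small an SD in the T3 group was found in 0.045% of all genes. The log2 change was -0.38 ± 0.06 (SE), a level of 76.7% of control. Has3 was dim, at the 15.3rd to 22.6th percentile of genes over the 6 arrays, and whether it was above background is not known. Omitting T3 replicate 2, T3 replicate 3 or control replicate 1 ended its call, while the log2 change stayed between -0.39 and -0.37.

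Has1, the remaining synthase, did not share this direction. Its signal (probe set 10448117) was 5.47, 5.31 and 5.45 in the controls and 5.44, 5.47 and 5.69 in the T3 samples. The groups overlapped, with T3 replicate 3 alone above every control. The log2 change was 0.12 ± 0.09 (SE) and the gene was not called. It was 0.04 without T3 replicate 3 and 0.07 without control replicate 2. It too was dim, at the 29.3rd to 34.2nd percentile. Whether the 3 synthases differed from each other in their change was not tested.

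Hyal2 encodes a hyaluronidase anchored to the cell surface that cuts long chains. Its signal (probe set 10588683) was 7.10, 7.10 and 7.14 in controls and 6.94, 7.11 and 7.06 with T3. T3 replicate 1 was the lowest of the 6 arrays and the other two T3 arrays lay near the control values. The log2 change was -0.07 ± 0.07 (SE), or -0.03 without T3 replicate 1, and the gene was not called.

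Cd44, the main cell-surface receptor for hyaluronan, did not separate the groups. Its signal (probe set 10485405) was 8.88, 9.01 and 8.79 in controls and 8.92, 8.74 and 8.85 with T3. The groups were interleaved. The log2 change of -0.05 ± 0.08 (SE) was not called, and its sign turned without control replicate 2. One value per gene does not separate the splice forms of Cd44.

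Vcan encodes versican, a large chondroitin sulfate proteoglycan that binds hyaluronan. Its signal (probe set 10410931) was high on every array, at the 93.4th to 96.8th percentile of genes. Controls gave 10.90, 10.79 and 10.58, and T3 samples gave 10.55, 10.36 and 10.37. Every T3 array was lower than every control, but only by 0.04 between T3 replicate 1 and control replicate 3. The log2 change was -0.33 ± 0.10 (SE), or 79.6% of control, and Vcan was not called.

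The link proteins Hapln1 and Hapln3 join hyaluronan to proteoglycans of the versican family. Hapln1 (probe set 10406519) had 4.51, 4.43 and 4.46 in controls and 4.62, 4.36 and 4.64 with T3, a log2 change of 0.07 ± 0.09 (SE). T3 replicate 2 was its lowest array and the other two T3 arrays its highest. Without T3 replicate 1, 2 or 3 the change was 0.03, 0.17 or 0.02, and with array quality weights it turned to -0.0028. Hapln3 (probe set 10564704) had 5.09, 4.93 and 5.07 in controls and 5.37, 5.28 and 5.09 with T3, a log2 change of 0.22 ± 0.09 (SE). Its groups were separated by 0.0093 only. Neither gene was called, and both were dim, below the 29th percentile of genes on every array.

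Tnfaip6, also known as TSG-6, is a secreted protein that binds hyaluronan and helps attach the heavy chains of inter-alpha-inhibitor to it. Its signal (probe set 10472050) was 7.78, 7.83 and 7.91 in controls and 7.34, 7.88 and 7.85 with T3. T3 replicate 1 stood below every control, whereas the other two T3 arrays lay among the controls. The SD of the T3 group, 0.30, was as large or larger than that of 98.3% of genes. The log2 change of -0.15 ± 0.14 (SE) was not called and became 0.02 without T3 replicate 1.

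Promoter sequence was taken from RefSeq (GRCm38.p6) and searched for the hexamer AGGTCA, the core motif bound by thyroid hormone receptors, on both strands of the 250 bases upstream of each start. Of the 10 genes, 8 matched an entry, and Has2 and Has3 did not. The motif was in 2 of these 8 promoters, Has1 and Tnfaip6, and in 14.02% of all 32851 promoters of the table. Its direct repeat with a spacer of 4 bases, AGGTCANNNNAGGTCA, was in none of the 8 and in 0.01522% of all. Both promoters with the motif are shown, with the motif in capitals as read on the gene's strand (TGACCT, the reverse complement), together with that of Vcan, the gene of largest log2 change among those of the 8 that were measured. The motif begins 113 bases upstream of the start in Has1 and 65 in Tnfaip6. The stretches are chr17:17855189-17855438 on the minus strand for Has1, chr2:52037863-52038112 on the plus strand for Tnfaip6 and chr13:89742513-89742762 on the minus strand for Vcan.
Has1: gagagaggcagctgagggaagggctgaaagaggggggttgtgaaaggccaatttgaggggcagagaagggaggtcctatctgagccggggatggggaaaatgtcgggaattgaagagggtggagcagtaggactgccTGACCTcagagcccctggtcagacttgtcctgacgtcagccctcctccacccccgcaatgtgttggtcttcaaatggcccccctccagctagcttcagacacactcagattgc
Tnfaip6: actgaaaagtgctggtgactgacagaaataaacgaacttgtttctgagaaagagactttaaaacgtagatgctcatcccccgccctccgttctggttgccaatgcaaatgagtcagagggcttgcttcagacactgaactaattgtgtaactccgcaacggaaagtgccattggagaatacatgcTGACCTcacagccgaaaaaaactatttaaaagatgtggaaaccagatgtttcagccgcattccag
Vcan: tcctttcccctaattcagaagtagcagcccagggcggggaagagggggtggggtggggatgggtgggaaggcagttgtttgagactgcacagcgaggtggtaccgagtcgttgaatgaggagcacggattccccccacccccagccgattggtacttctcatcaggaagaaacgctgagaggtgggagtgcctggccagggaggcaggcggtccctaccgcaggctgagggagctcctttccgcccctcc
Neither gene with the motif was called, and Vcan, without it, was not called either. A match is a string of letters and not a measured binding site.

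Markers of the cell types that the spheres could hold give the setting of these values. The 8 measured markers of enteric neural progenitors, such as Sox10, Ret and Ngfr, had a mean log2 level of 11.35 to 11.40 over the control arrays and 11.29 to 11.40 over the T3 arrays, and none was called. For 10 fibroblast and mesenchyme markers the mean was 9.84 to 9.96 in controls and 9.98 to 10.00 with T3. Thy1 was called higher, by 1.24, and Twist1 lower, with a log2 change of -0.49. The other 8 were not called. Log2 signal has no true zero, so no marker can be said to be absent. Of 9 smooth muscle markers Myh11 and Myocd were called higher and Tagln and Acta2 lower, with list means of 7.23 to 7.38 in controls and 7.34 to 7.40 with T3. Of 8 endothelial markers Plvap was called higher and Kdr and Egfl7 lower, with means of 6.14 to 6.32 and 6.14 to 6.33. Of 10 neuron markers, Snap25 and Prph were called higher, with means of 10.03 to 10.28 and 10.30 to 10.41. None of 6 measured glia markers (10.49 to 10.65 and 10.49 to 10.60), 9 macrophage and leukocyte markers (5.28 to 5.34 and 5.30 to 5.36), 6 mesothelium markers (5.63 to 5.80 and 5.70 to 6.15) or 6 epithelium markers (5.25 to 5.52 and 5.37 to 5.46) was called. The glia and progenitor lists share Sox10 and Erbb3, so their means are not independent. The called share was 44.4% of smooth muscle, 37.5% of endothelial, 20.0% of neuron and 20.0% of fibroblast markers, beside 3.1% of all genes. Groups did not overlap in 77.8% of smooth muscle, 50.0% of progenitor, 40.0% of neuron, 40.0% of fibroblast and 37.5% of endothelial markers. For glia, mesothelium, leukocyte and epithelium markers this share was 16.7%, 16.7%, 11.1% and 0.0%, beside 19.5% of all genes. The part of cell composition in the lower Has2 signal was not tested. The hormone's well-known targets Klf9 and Hr were higher by 1.86 and 1.92 on the log2 scale, and the receptor gene Thrb by 1.30. Thra and the deiodinase gene Dio3 were not called, with log2 changes of -0.09 and 0.54 (limma, adjusted p = 0.652 and 0.12). Dio3 passed without control replicate 3, at 0.71 (limma adjusted p = 0.0296), and in no other fit without 1 array (adjusted p up to 0.414).

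Around these genes, 72 measured genes of hyaluronan, versican and CD44 biology were listed by function. Of them 2 were called higher and 5 lower, 9.72%, beside 3.1% of all genes, and their median log2 change was -0.0024. Their groups did not overlap in 25 of the 72 (34.7%, 11 with T3 higher and 14 lower), beside 19.5% of all genes. The lists were written with earlier results of these data known, and nothing is read from the difference between these shares.

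**Figure D2:**
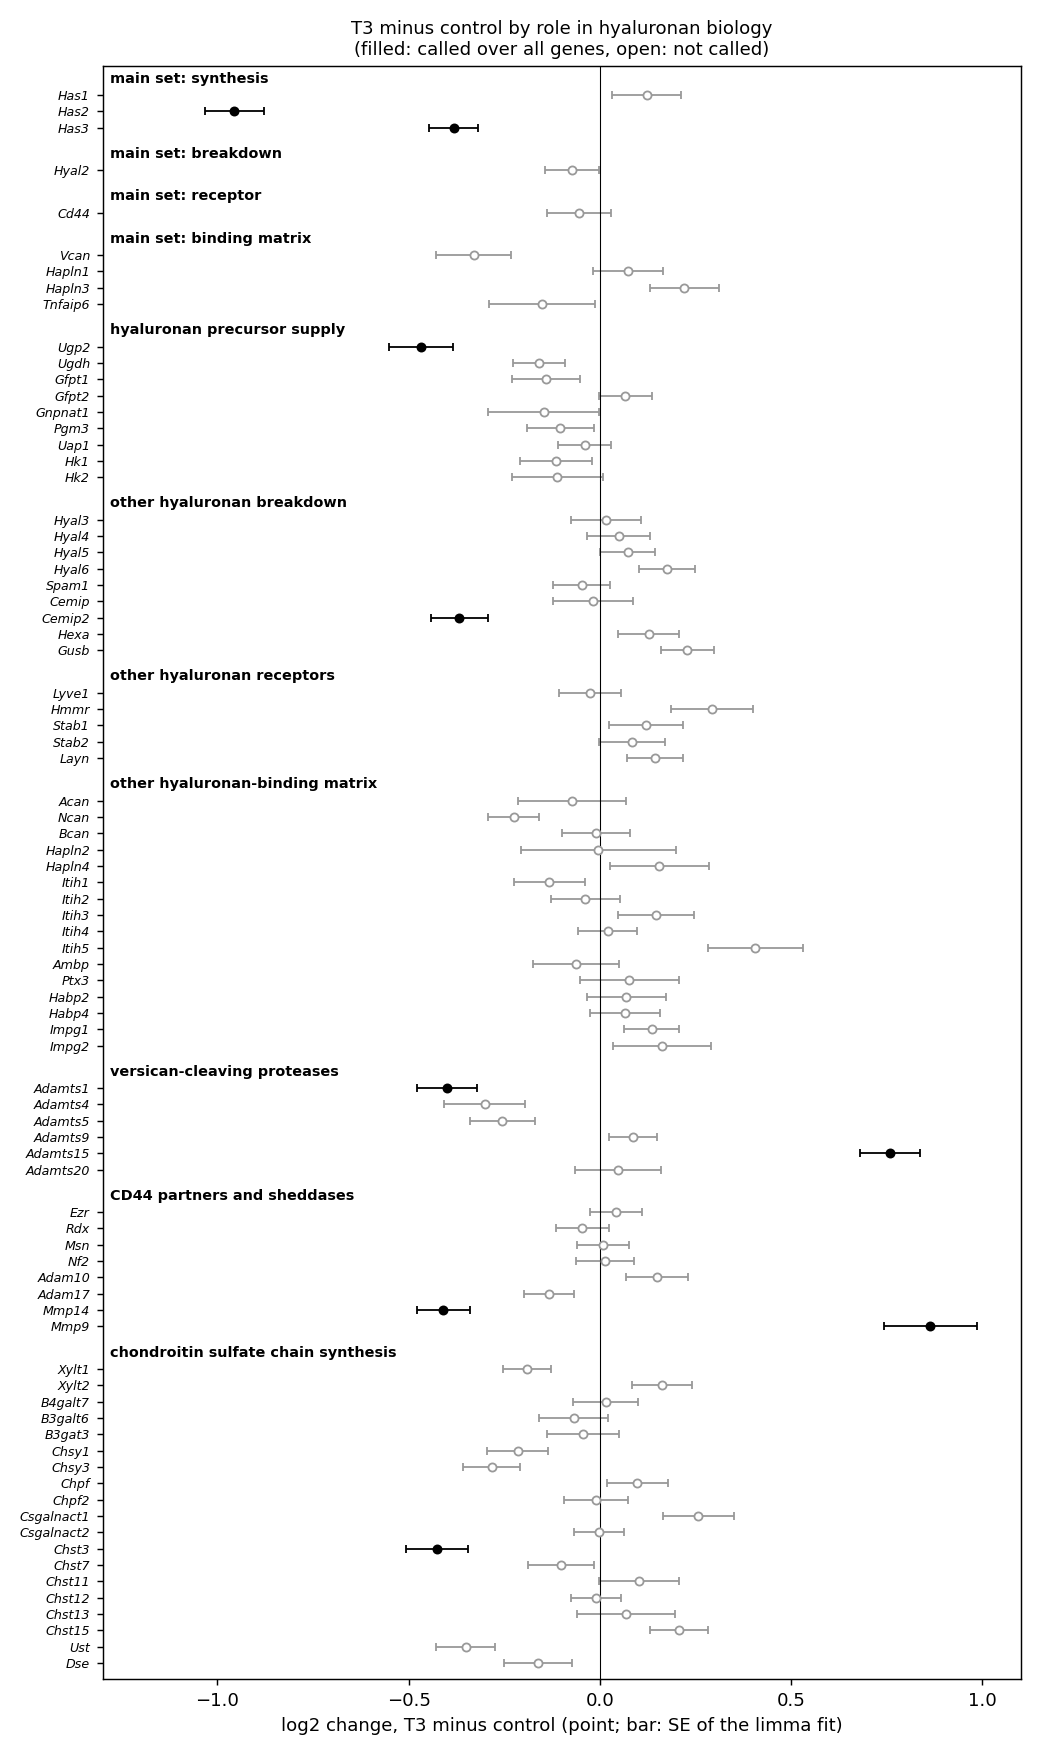
Log2 change, T3 minus control (horizontal axis; point, with the SE of the limma fit as bar), of the 9 measured hyaluronan genes (headed main set) and of 72 further genes by role; filled points passed the test over all genes. Has2 lies farthest to the left at -0.96, and Mmp9 and Adamts15 lie farthest to the right at 0.86 and 0.76.

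Of 9 measured genes that supply the sugar precursors, 1 was called, Ugp2, with less signal in the T3 samples. Ugp2, which makes the UDP-glucose from which UDP-glucuronic acid is formed, had 9.79, 9.93 and 9.66 in controls and 9.29, 9.36 and 9.33 with T3. All T3 arrays were below all controls, and the log2 change was -0.47 ± 0.08 (SE, limma adjusted p = 0.0224). Ugdh, which oxidises UDP-glucose to UDP-glucuronic acid, had a log2 change of -0.16 ± 0.07 (SE) with adjusted p = 0.341 (limma). The 1 call of 9 is 11.1% of the list, beside 3.1% of all genes called and 0.823% called lower. In 8 of the 9 (88.9%) the log2 change was below 0, beside 46.7% of all genes, with a list median of -0.12. Omitting any T3 array, or control replicate 1, ended the call of Ugp2 (adjusted p up to 0.106).

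Of 9 other genes of hyaluronan breakdown, 1 was called (11.1%), lower, beside 3.1% of all genes called and 0.823% called lower. Cemip2, a cell-surface protein described as a hyaluronidase, had 8.51, 8.60 and 8.69 in controls and 8.17, 8.27 and 8.26 with T3. Its groups did not overlap, with a log2 change of -0.37 ± 0.08 (SE, limma adjusted p = 0.0383). The call was lost without any 1 array (adjusted p up to 0.123). Gusb, the lysosomal beta-glucuronidase that trims hyaluronan fragments, was not called, at 0.23 ± 0.07 (SE) on the log2 scale (limma adjusted p = 0.154). Its T3 arrays, at 9.08, 9.14 and 9.15, were all above the controls, at 8.82, 8.91 and 8.96. In 3 of the 9 (33.3%) the log2 change was below 0, beside 46.7% of all genes, and the list's median was 0.05.

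No other hyaluronan receptor was called among 5 measured, beside 3.1% of all genes. In 1 of them (20.0%) the log2 change was below 0, beside 46.7% of all genes. Hmmr, a hyaluronan-binding protein that also acts at the mitotic spindle, stood at 0.29 ± 0.11 (SE) on the log2 scale (limma adjusted p = 0.254). Layn, the receptor layilin, had 0.14 ± 0.07 (SE, limma adjusted p = 0.466). None of 16 other matrix proteins that bind hyaluronan was called, with a list median of 0.04. Of their log2 changes 7 (43.8%) were below 0, beside 46.7% of all genes. Ncan, the brain proteoglycan neurocan, had a log2 change of -0.23 ± 0.07 (SE, limma adjusted p = 0.141), and Itih5, an inter-alpha-inhibitor heavy chain, had 0.41 ± 0.12 (SE, limma adjusted p = 0.155). In Itih5 all T3 values (8.998, 9.47 and 9.45) lay above all controls (8.94, 8.87 and 8.89), T3 replicate 1 by the least. Itih5 passed without T3 replicate 1, at 0.56 (limma adjusted p = 0.0143), and in no other fit without 1 array (adjusted p up to 0.428).

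Proteases that cleave versican moved in opposite directions, with the log2 change below 0 in 3 of 6 (50.0%), beside 46.7% of all genes. Adamts15 rose, with 5.99, 6.23 and 6.13 in controls and 6.85, 6.86 and 6.91 with T3. The log2 change was 0.76 ± 0.08 (SE, limma adjusted p = 0.00258), a 1.69-fold difference that passed without any 1 array (adjusted p up to 0.0176). Adamts1 was lower, with 9.79, 9.83 and 9.73 in controls and 9.27, 9.45 and 9.44 with T3. Its log2 change was -0.40 ± 0.08 (SE, limma adjusted p = 0.0313), a call lost without any 1 array (adjusted p up to 0.141). The other 4 of 6 were not called, with log2 changes of -0.30 in Adamts4, -0.25 in Adamts5, 0.09 in Adamts9 and 0.05 in Adamts20. The 2 calls are 33.3% of the list, beside 3.1% of all genes. Groups did not overlap in 5 of the 6 (83.3%), beside 19.5% of all genes.

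Among genes of proteins that tether or cut CD44, 1 was called higher and 1 lower, while Cd44 itself was not called. Mmp9, a secreted gelatinase that can dock on CD44, had 7.06, 7.44 and 7.53 in controls and 8.13, 8.23 and 8.27 with T3. It rose by 0.86 ± 0.12 (SE) on the log2 scale (limma adjusted p = 0.00862), a 1.82-fold difference that passed without any 1 array (adjusted p up to 0.0416). Mmp14, a membrane protease that can shed CD44, had 11.69, 11.80 and 11.77 in controls and 11.28, 11.37 and 11.38 with T3. Its log2 change was -0.41 ± 0.07 (SE, limma adjusted p = 0.0197), a call kept only without control replicate 2 among the fits without 1 array (adjusted p up to 0.0784). The other 6 of 8 were not called, and the cytoskeletal linkers Ezr, Rdx and Msn had log2 changes of 0.04, -0.05 and 0.0083. The 1 higher and 1 lower call among these 8 stand beside 3.1% of all genes called, 2.28% higher and 0.823% lower. In 3 of the 8 (37.5%) the log2 change was below 0, beside 46.7% of all genes.

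Across the 6 arrays, the genes with values most like those of Has2 by Pearson's r were Sox11 (0.997), a transcription factor of immature neurons, Kif21b (0.996), a kinesin motor, Mmp14 (0.996), the Notch effector Hey1 (0.995) and the receptor phosphatase gene Ptprv (0.994). These values describe 6 points in 2 separate groups, so r mostly reflects the gap between T3 and control. The sizes of the changes were unlike: the log2 change was -1.21 in Sox11, -0.63 in Kif21b, -0.51 in Ptprv and -0.39 in Hey1, against -0.96 in Has2. Among the other synthases, r with Has2 was 0.987 for Has3 and -0.54 for Has1.

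**Figure D3:**
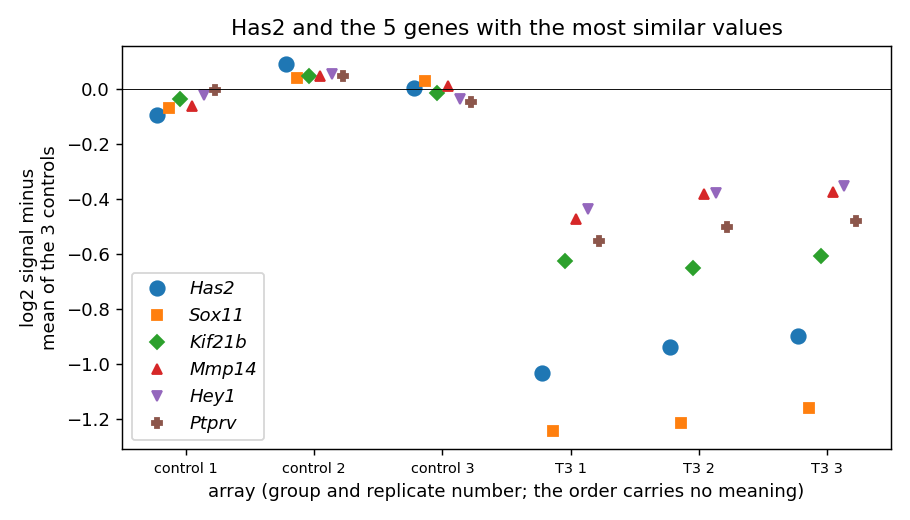
Log2 signal minus the mean of the 3 control arrays (vertical axis) on each array (horizontal axis) for Has2 and the 5 genes with the highest Pearson r to it; each point is 1 array. All 6 genes are near 0 in controls and below it in every T3 array, Sox11 by more than Has2 and the other 4 by less.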

How the data were processed

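Total RNA of 6 enterosphere samples was measured, 1 array each, and groups and replicate numbers came from the sample labels. The authors deposited log2 values for 35556 probe sets, made with RMA and Partek 6.5 per the submitters' processing notes; the sources used here give neither settings nor genome build. RMA as usually run equalises array distributions, which removes changes common to most genes, and background compresses differences of dim genes. The values carry no detection calls.

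Probe sets were named through the platform annotation (21789 with 1 symbol, 1621 with several, 12146 not listed), with 1 probe set per gene, the one of highest mean. For 19938 genes, limma 3.58.1 under R 4.3.3 tested T3 minus control (lmFit, eBayes, two-sided, Benjamini-Hochberg over all genes, called under 0.05; SE from this fit), a procedure tested on simulated data. The text names all measured genes of the set and the 5 genes most like Has2. Of each further list it names the called genes and the 2 of smallest p. Klf9, Hr, Thra, Thrb and Dio3 are named too. Adamts4, Adamts5, Adamts9, Adamts20, Ezr, Rdx and Msn and the cell type markers, of which called ones are named, were chosen after their values were seen. The set and the lists were chosen with earlier results of these data known. The number of arrays limits the precision. The labels do not say whether samples of a group were separate preparations beyond their pooled mice, so the p-values cover only the spread among these samples, which may be technical. No 2 arrays were duplicates (SD of their difference at least 0.137). Alternatives were the replicate number as a block, renewed quantile normalization, centring, filters on dim genes, the mean of probe sets, trend with robust fitting, array quality weights, other thresholds and leaving out each array.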

Additional observations from a re-analysis of the deposited data

How the results depend on the processing

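Has2 was called lower under every alternative run, with log2 changes from -1.003 to -0.857. The set was chosen around this lower signal. These calls therefore describe how it depends on processing and are no independent support for it. The number of called genes in the hyaluronan set, 2, became 1 with the replicate block, without the dimmest 25% or 50% of genes and at adjusted p under 0.01, and was 1 to 2 without 1 array. In each of these Has2 was the gene left. Has3 was itself removed by both filters on dim genes. With trend and robust fitting or with array quality weights Vcan was called as well, making 3. Of the further 72 genes, the number called was 7 (2 higher, 5 lower). It became 22 with array quality weights (11 higher, 11 lower), 2 at adjusted p under 0.01 (none lower), and 2 to 5 without 1 array. No lower call was made without any 1 of T3 replicates 1, 2 and 3 or without control replicate 1; 3 were made without control replicate 2 and 1 without control replicate 3. Over all genes the 618 calls became 3548 with array quality weights, 962 at adjusted p under 0.10, 199 at adjusted p under 0.01, and 191 to 640 without 1 array. With array quality weights Ugdh, Gusb, Hmmr, Layn, Ncan, Itih5 and Dio3 were called too (limma adjusted p from 0.00188 to 0.0367). Ust was called under renewed quantile normalization, both centrings, both dim filters, trend and robust fitting, and array weights.

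The labels use the same replicate numbers in both groups without saying that they pair samples. Deviations from the group means correlated at 0.179, 0.0171 and 0.000167 for numbers 1, 2 and 3. Between different numbers they correlated at -0.176 to 0.114, so these values cannot decide whether the numbers pair samples. As the labels state no pairing, the numbers were not taken as pairs. With the replicate block 472 of all genes were called, 1 in the hyaluronan set (Has3 was not called) and 5 of the further 72 (Cemip2 and Adamts1 were not called). Hey1 was not called and Dio3 was called with this block. No detection calls were used here, so the part of background in dim genes such as Has1, Has3, Hapln1 and Hapln3 was not tested.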

Other observations

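Versican carries chondroitin sulfate chains, and the genes that build them were looked at as a further list. Of 19 measured genes 1 was called, lower, which is 5.26% beside 3.1% of all genes. The log2 change was below 0 in 12, or 63.2%, beside 46.7% of all genes, and the median was -0.01. Chst3, a chondroitin sulfotransferase, had 7.38, 7.42 and 7.57 in controls and 6.95, 7.03 and 7.12 with T3. Every T3 array was below every control, with a log2 change of -0.43 ± 0.08 (SE, limma adjusted p = 0.0305). Its call was kept only without control replicate 2 among the fits without 1 array (adjusted p up to 0.118). Ust, which sulfates the uronic acid of the chains, had a log2 change of -0.35 ± 0.08 (SE) and just missed the threshold (limma adjusted p = 0.0514), with all T3 values (8.46, 8.57 and 8.57) below all controls (8.77, 8.91 and 8.95). The remaining 17 genes were not called.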
